A study of Phalaenopsis x intermedia with 4 samples.

Results

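The cross of P. aphrodite (Pa) with P. equestris (Pe), 2 moth orchids used as breeding parents, gave the F1 hybrid P. Intermedia, and the calls of the parents' own plants were compared here site by site. Genotyping-by-sequencing samples a genome next to restriction sites, and leaf DNA was digested with Hinp1I or ApeK1, in each case with HaeIII added, to give 4 multiplexed libraries. Both enzyme pairs and both plates of each pair were merged in 1 table of genotype calls, with 1 column for Pa, 1 for Pe and 90 for their progeny. Each species was thus represented by 1 column with no replicate, so the values below describe 2 plants and not the spread within a species, and no p-value was computed between the parents. The labels give no treatment, age or cultivar for either parent. P. aphrodite is known for white flowers and P. equestris for small flowers in several colors.

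Of the 115866 entries of the table, 113517 had exactly 2 base alleles on chromosomes 1 to 19. A site was called widely called when the call was missing (letter N) in at most 20% of the 92 plant columns, and sparsely called otherwise. This gave 7644 widely called sites (6.73%), of which 7404 had a call in both parents, and 105873 sparsely called sites, of which 99749 had both. The parents' own calls were seldom missing. Among widely called sites Pa lacked a call at 205 (2.68%) and Pe at 38 (0.497%), and among sparsely called sites the shares were 4.88% and 1.56%. Among widely called sites the missing calls of Pa were not spread evenly over Pe genotypes, since Pe was heterozygous at 83.2% of the 202 sites at which only Pa was missing. Among sparsely called sites it was heterozygous at 28.2% of 4470 such sites. Where only Pe was missing, Pa was heterozygous at 45.7% of 35 widely called and 19.5% of 959 sparsely called sites. Sites lacking a call in either parent do not count in the shares below. The depth behind a call is unknown, because the table holds no read counts, and intervals given with shares are Wilson 95% intervals that cover counting error only. Neighboring SNPs often share a sequenced fragment, which makes these intervals too narrow. Of the widely called sites, 75.1% lay within 64 bp of another one. Adjacent sites at most 64 bp apart had the same pair of parental genotypes in 61.3% of cases, against 32.0% for those over 1 kb apart and 31.2% from the class sizes alone.

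In a cross of outbred parents, the parental genotypes fix what the progeny can carry. A base for which both parents are homozygous but different (a fixed difference) must be heterozygous in each F1 plant, a site heterozygous in 1 parent must segregate 1:1, a site heterozygous in both must segregate with both homozygotes present, and a site with the same homozygote in both parents cannot segregate. Heterozygosity measures how different the 2 chromosome copies of a plant are. Here it is a share of sites that vary among these 92 plants with a minor allele frequency of at least 0.05, and not a rate per base of the genome.

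Single sites show what these classes look like in the calls. The sites shown are those with the fewest missing calls in their class, on different chromosomes, and each had a call in all 90 progeny. They are named by chromosome and position, no source used here names the reference build, and the table pairs no site with a gene. At S1_833923 on chromosome 1, position 833923, Pa was C, Pe was G and 87 progeny were heterozygous for G and C, with 3 homozygous for G. At S2_247572 on chromosome 2, position 247572, Pa was T and Pe was C, but only 1 progeny plant was heterozygous, while 49 were T and 40 were C. At S3_425265 on chromosome 3, position 425265, Pa was T, Pe was C, 50 progeny were C, 40 were T and 0 were heterozygous. Thus the same parental pattern went with nearly all heterozygotes at the first site and with nearly all homozygotes at the other two.

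The next sites are heterozygous in 1 parent, in both, or in neither. Pa was heterozygous (R, that is A and G) and Pe was G at S1_13360327 on chromosome 1, position 13360327, where 47 progeny were G and 43 were R. Pe was heterozygous (R) and Pa was A at S3_1581057 on chromosome 3, position 1581057, where 41 progeny were A, 47 were R and 2 were G. Shared heterozygosity was seen at S9_29714929 on chromosome 9, position 29714929, where both parents were S (G and C) and the progeny were 24 G, 44 S and 22 C. The same homozygote C was called in both parents at S1_5407915 on chromosome 1, position 5407915, yet 54 progeny were C, 33 were heterozygous and 3 were T. Of these 4 sites, the last had 36 progeny calls that the parents' calls do not allow, and S3_1581057 had 2. Among the 3 sites of each kind with the fewest missing calls, such calls numbered 0, 1 and 1 where Pa was heterozygous and 5, 7 and 2 where Pe was.

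Pe was more often heterozygous than Pa at widely called sites. Pa was heterozygous at 1173 of 7404 sites (15.8%, interval 15.0 to 16.7) and Pe at 1815 (24.5%, interval 23.5 to 25.5). The parents were rarely heterozygous at the same site. Pa alone was heterozygous at 1145 sites (15.5%), Pe alone at 1787 (24.1%), and both at 28 sites (0.378%), which lay on 10 chromosomes, with 13 of the sites on chromosome 2. A fixed difference was called at 3386 sites (45.7%, interval 44.6 to 46.9), the most frequent class, and the same homozygote at 1058 (14.3%). Where both parents were homozygous, they differed at 76.2% of 4444 sites. A site with the same homozygote was kept only if progeny carried the other base. This share therefore does not measure how much the parents differ. The heterozygosity of Pe lay near the middle of the progeny, with 44 of the 90 plants below it and 46 above, and that of Pa lay below 85 of them. The progeny ranged from 12.9% to 37.6% with a median of 24.7%. The parents' calls predict more, since fixed differences alone, 45.7% of sites, should be heterozygous in each progeny plant.

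**Figure D1:**
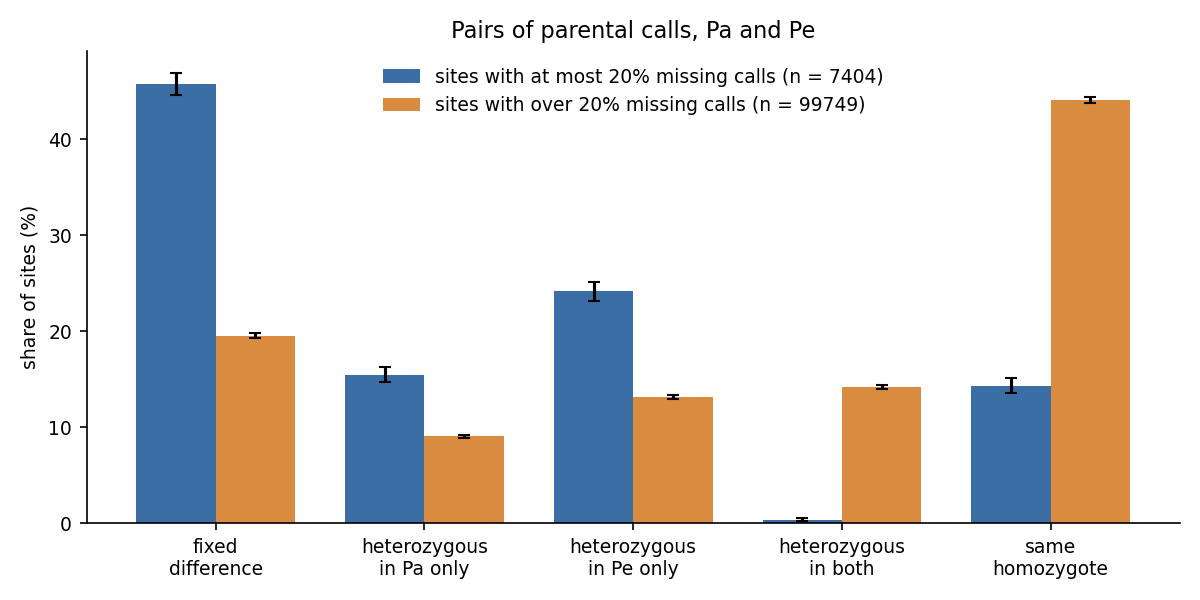
Share of sites (%, y axis) in each of the 5 pairs of parental genotypes (x axis), for widely called (blue) and sparsely called sites (orange), with Wilson 95% intervals. Fixed differences fall from 45.7% to 19.5% between the sets, while sites with the same homozygote rise from 14.3% to 44.1%.

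The sparsely called sites gave another picture of the same parents. Pa was heterozygous at 23149 of 99749 sites (23.2%, interval 22.9 to 23.5) and Pe at 27237 (27.3%, interval 27.0 to 27.6), so the order of the parents was the same but their distance smaller. Both parents were heterozygous at 14125 sites (14.2%), against 0.378% of widely called sites. As a share of the sites heterozygous in either parent, these were 39.0% against 0.946%. Of the heterozygous sites of Pa, 61.0% were also heterozygous in Pe, and of those of Pe, 51.9% were also heterozygous in Pa. Fixed differences made up 19.5% of sites and the same homozygote 44.1%, the most frequent class here. Where both parents were homozygous, they differed at 30.7% of 63488 sites, a share with the same limit as at widely called sites. Among the 90 progeny, 33 lay below Pa and 61 below Pe in heterozygosity at these sites. However, 30 of the 90 lacked from 69.3% to 96.3% of calls over all sites. At sparsely called sites these 30 plants were thus ranked on far fewer sites than the parents. The ranks of the parents among the progeny therefore do not compare all plants at the same sites. The difference between the sets was not tested, because sites are not replicates of a plant. The table does not say which enzyme pair gave a call, so single sites could not be assigned to a library. By the paper's SNP counts for each pair, nearly all SNPs came from ApeK1. Those from Hinp1I were far fewer than the widely called sites. If those counts describe this table, most sites of each set came from ApeK1. Whether the library bears on the difference between the sets was not tested.

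By chromosome, Pe was above Pa in heterozygosity on 16 of the 19 chromosomes at widely called sites, where the intervals of the parents did not overlap on 8 chromosomes, all with Pe higher. The difference of Pa minus Pe averaged -10.4 percentage points with an SD of 8.20 between chromosomes. It was widest on chromosome 18, where 6.67% of 75 sites were heterozygous in Pa and 30.7% in Pe. Pa was above Pe on chromosome 14, with 27.5% of 244 sites against 20.9%, and also on chromosomes 4 and 10. The highest share in Pa was that of chromosome 14, and the highest in Pe was 33.8% of 77 sites on chromosome 11. The lowest in Pe was 18.2% of 110 sites on chromosome 9. Chromosome 19, where Pa had 0 heterozygous sites, had only 5 sites, and the interval reached 43.4%. Fixed differences ranged from 33.6% on chromosome 14 to 61.8% of 34 sites on chromosome 13, leaving out chromosome 19 with 4 of its 5 sites.

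**Figure D2:**
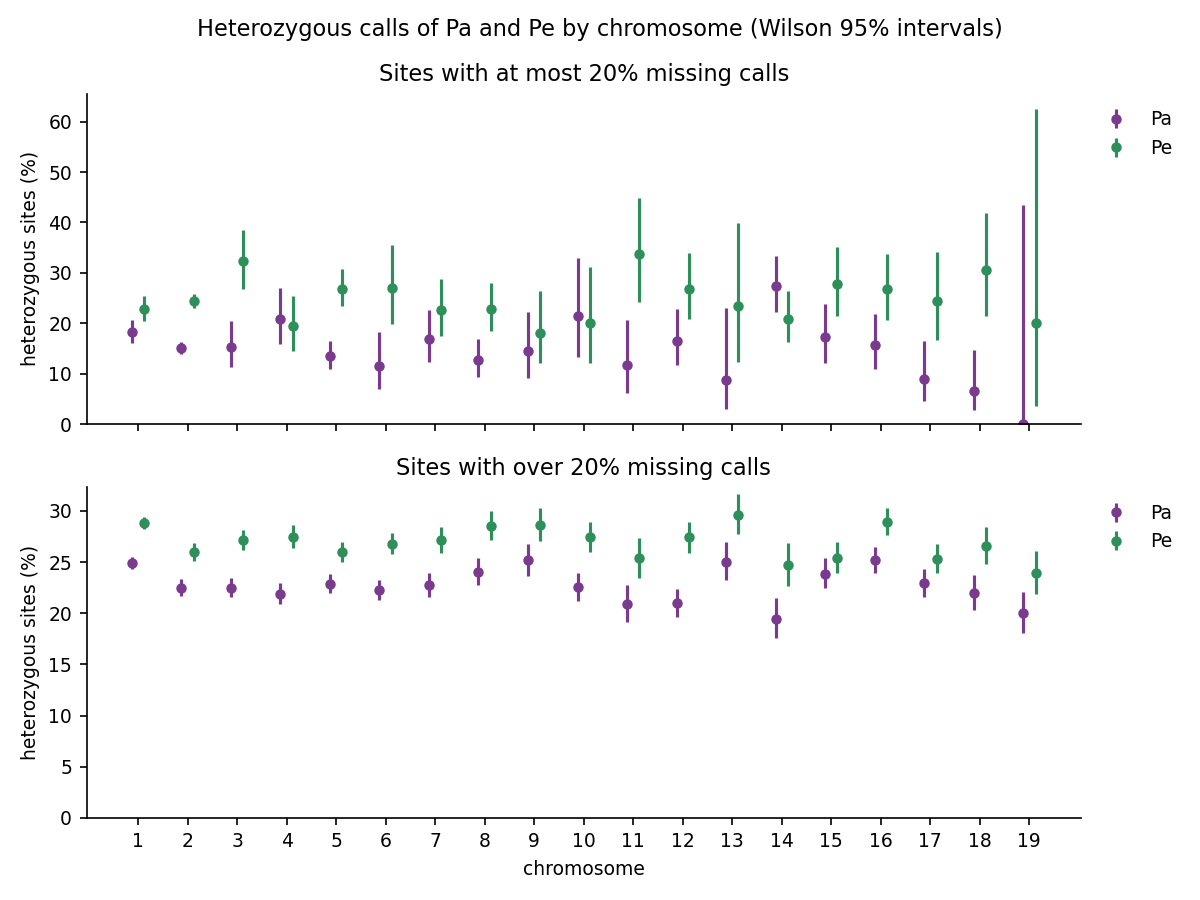
Heterozygous sites (%, y axis) of Pa (purple) and Pe (green) on each of the 19 chromosomes (x axis), with Wilson 95% intervals, at widely called (top) and sparsely called sites (bottom). Pe lies above Pa on 16 chromosomes in the top panel and on 19 in the bottom one.

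Among sparsely called sites Pe was above Pa on all 19 chromosomes, without overlap of the intervals on 16 of them. The difference averaged -4.18 percentage points with an SD of 1.10 between chromosomes, from -6.42 on chromosome 12 to -1.56 on chromosome 15. The levels hardly moved between chromosomes, from 19.5% (chromosome 14) to 25.2% (chromosome 9) in Pa and from 23.9% (chromosome 19) to 29.6% (chromosome 13) in Pe. Chromosome 14 was thus the highest for Pa in one set of sites and the lowest in the other. Fixed differences varied more, from 7.66% on chromosome 13 to 31.1% on chromosome 12. Chromosome 13 also had the most shared heterozygous sites (20.2%) and the most sites with the same homozygote (57.9%), whereas chromosome 12 had the fewest of the latter (31.5%).

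In windows of 1 Mb, 86 windows had at least 20 widely called sites. Pe was above Pa in 55 of them, Pa above Pe in 26, and they were equal in 5. The median window had 16.7% of sites heterozygous in Pa, 25% in Pe and 44.9% fixed differences. Pa had no heterozygous site in 6 windows and Pe in 0, and 77 windows held no site heterozygous in both. The Pearson correlation between the heterozygosity of Pa and that of Pe over the 86 windows was -0.28. Both shares of a window come from the same sites, in classes that exclude each other except for shared heterozygous sites. The window with the most heterozygous sites in Pa was at 182000001 to 183000000 on chromosome 2, where 13 of 23 sites were heterozygous in Pa and 5 in Pe. Those 23 sites lay in only 5 stretches of 1 kb. Next came 231000001 to 232000000 on chromosome 1, with 13 of 29 sites in Pa and 7 in Pe, and 21000001 to 22000000 on chromosome 14, with 12 of 30 and 3. For Pe the highest window was at 8000001 to 9000000 on chromosome 6, where 11 of 21 sites were heterozygous in Pe and 0 in Pa. At 158000001 to 159000000 on chromosome 2, 15 of 33 sites were heterozygous in Pe and 0 in Pa. Highest in fixed differences was 168000001 to 169000000 on chromosome 2, with 21 of 29 sites (72.4%), followed by 46000001 to 47000000 on the same chromosome with 17 of 24. On chromosome 5, 38000001 to 39000000 held 19 fixed differences among 28 sites, with 8 heterozygous in Pe and 1 in Pa.

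**Figure D3:**
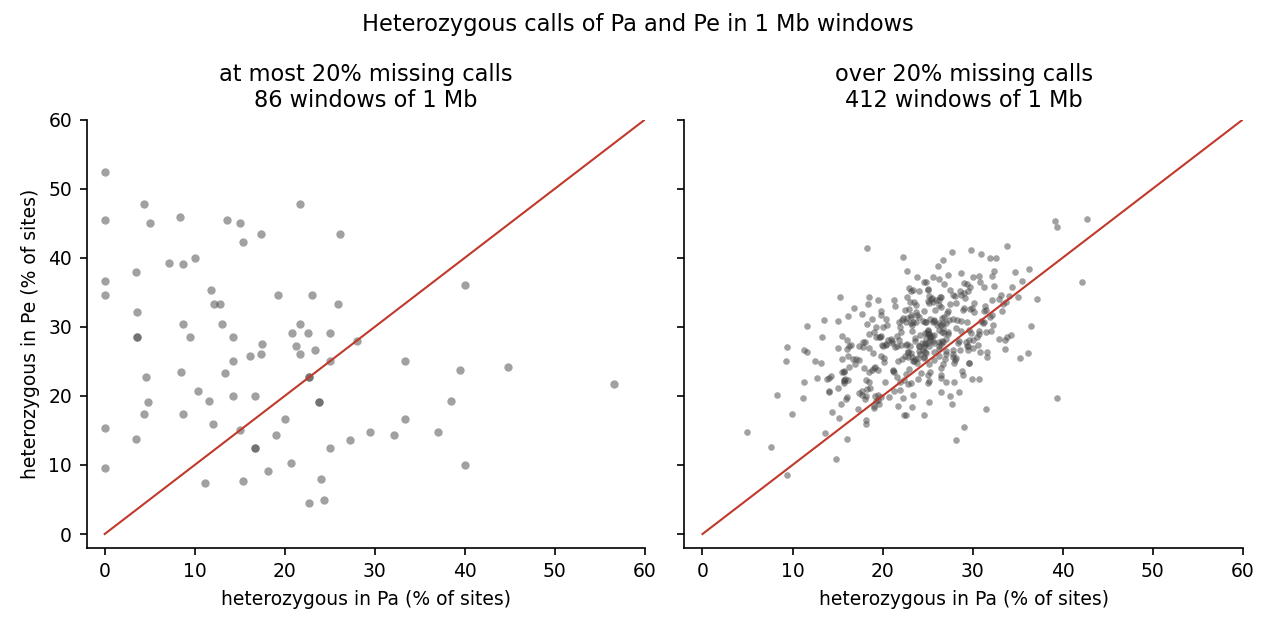
Each point is a 1 Mb window, placed by the share of its sites heterozygous in Pa (%, x axis) and in Pe (%, y axis), for 86 windows of widely called sites (left) and 412 of sparsely called sites (right). The red line marks equal shares, and 55 of the 86 and 307 of the 412 windows lie above it.

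Among sparsely called sites 412 windows had at least 100 sites. Pe was above Pa in 307, Pa above Pe in 96, and 9 were equal. No window lacked heterozygous sites in either parent, and none lacked sites heterozygous in both. Here the correlation between the parents was positive (Pearson's r of 0.51 over 412 windows). Sites heterozygous in both parents count toward both shares of a window. They were 61.0% of the heterozygous sites of Pa and 51.9% of those of Pe. The correlation without them was not computed, so this r does not show that the parents vary together. The same window led for Pa, for Pe and for shared heterozygous sites. It was at 95000001 to 96000000 on chromosome 1, where 44 of 103 sites were heterozygous in Pa, 47 in Pe and 40 in both. At 8000001 to 9000000 on chromosome 2, 44 of 117 sites were heterozygous in both parents, 63 had the same homozygote and 0 were fixed differences. Fixed differences were most frequent on chromosome 2 at 64000001 to 65000000 (55 of 103 sites), and the windows at 65000001 to 66000000 (57 of 110) and 66000001 to 67000000 (52 of 109) beside it were also among the highest 5. Another was at 2000001 to 3000000 on chromosome 9, with 54 fixed differences among 102 sites, where 5 sites were heterozygous in Pa and 15 in Pe. Only 17 windows met both limits. Over these, the correlation between the sets was 0.18 for heterozygosity in Pa, 0.11 in Pe and 0.32 for fixed differences, and the fixed difference share was higher at the widely called sites in 15 of the 17.

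Long stretches without a heterozygous call were more extensive in Pa. Such stretches lengthen where heterozygous sites are fewer, so this is not a result apart from the lower heterozygosity of Pa. Counting stretches of at least 10 consecutive widely called sites, Pa had 214 with a total span of 477 Mb and Pe had 170 with a total of 290 Mb. The longest of Pa spanned 24.6 Mb on chromosome 4 (20649235 to 45271553) over 39 sites, of which 8 were heterozygous in Pe and 26 were fixed differences. The second was 23.6 Mb on chromosome 3 (22163854 to 45715858) over 30 sites, 10 of them heterozygous in Pe. The longest of Pe was 11.2 Mb on chromosome 6 (26307035 to 37486752) over 12 sites, 5 of them heterozygous in Pa, followed by 9.58 Mb on chromosome 4 (38222633 to 47803618) over 17 sites. Sparsely called sites were heterozygous inside these stretches all the same. Of the 1673 such sites within the longest stretch of Pa, 353 (21.1%) were heterozygous in Pa, and of the 1598 within the longest of Pe, 486 (30.4%) were heterozygous in Pe. Both shares lie near those over all sparsely called sites, 23.2% and 27.3%.

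Transitions (A with G, or C with T) usually outnumber transversions among SNPs. They made up 57.9% of widely called sites (interval 56.8 to 59.0), a ratio of transitions to transversions of 1.37. By parental class, the share was 57.0% at fixed differences, 58.6% at sites heterozygous in Pa only, 58.3% in Pe only and 59.2% at sites with the same homozygote, with overlapping intervals. At the 28 sites heterozygous in both, 17 were transitions, and the interval ran from 42.4% to 76.4%. Sparsely called sites had 60.8% transitions (interval 60.5 to 61.1), a ratio of 1.55, with classes from 59.5% (heterozygous in both) to 61.2% (fixed differences and same homozygote). The types differed between the sets in the transversions too. Sites with C and G made up 10.2% of widely called and 7.94% of sparsely called sites, whereas those with A and T made up 8.29% and 10.7%. The SD of the transition share between chromosomes was 5.16 percentage points at widely called and 0.987 at sparsely called sites.

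The bases that each parent carried at fixed differences were close to balance. Of the 2739 widely called fixed differences with G or C in one parent and A or T in the other, G or C was in Pa at 1294 (47.2%, interval 45.4 to 49.1) and in Pe at 1445. With 1 site kept per 1 kb, a choice made after the values were seen, the share was 48.5% and its interval (45.5 to 51.4) held 50%. Over sparsely called sites it was 49.4% of 15909, with an interval from 48.6 to 50.1. A clearer asymmetry was seen in the base that only the heterozygous parent carried. Where Pa alone was heterozygous for such a pair, the base absent from Pe was A or T at 598 of 928 sites (64.4%, interval 61.3 to 67.5). Where Pe alone was heterozygous, the base absent from Pa was A or T at 911 of 1476 (61.7%, interval 59.2 to 64.2). These intervals overlap, and the difference between the parents was not tested. The sparsely called sites gave 57.8% for Pa and 56.0% for Pe.

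Classes were assigned from the calls of Pa and Pe alone, but those calls may include some imputed from progeny, and the progeny also bear on which sites passed the limits on missing calls and allele frequency. For each plant the share of heterozygous calls was computed at the sites of each class. At the 3386 widely called fixed differences, where the parents predict heterozygotes only, the progeny were heterozygous at 31.9% ± 6.62 of calls (SD, n = 90 plants), from 16.6% to 48.8%. Homozygotes for the base of Pa made up 35.7% ± 3.32 and those for the base of Pe 32.4% ± 3.64. At sites with the same homozygote in both parents, where no heterozygote is predicted, the share was 7.77% ± 2.91, and 27.5% ± 3.3 of all calls there were not allowed by the parents. Such a site passes the limit on allele frequency only if progeny carry the other base. Some calls not allowed were thus certain in this class. At sites heterozygous in 1 parent, calls not allowed made up 16.9% ± 2.1 (Pa only) and 19.7% ± 2.0 (Pe only). The progeny of these classes thus departed from the prediction, which the allele frequency limit requires where both parents had the same homozygote. At the 28 sites heterozygous in both parents each call is allowed, and 34.0% ± 10.4 of calls were heterozygous (n = 87 plants). Heterozygotes were more frequent at these fixed differences than at widely called sites with the same homozygote in 90 of 90 plants.

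**Figure D4:**
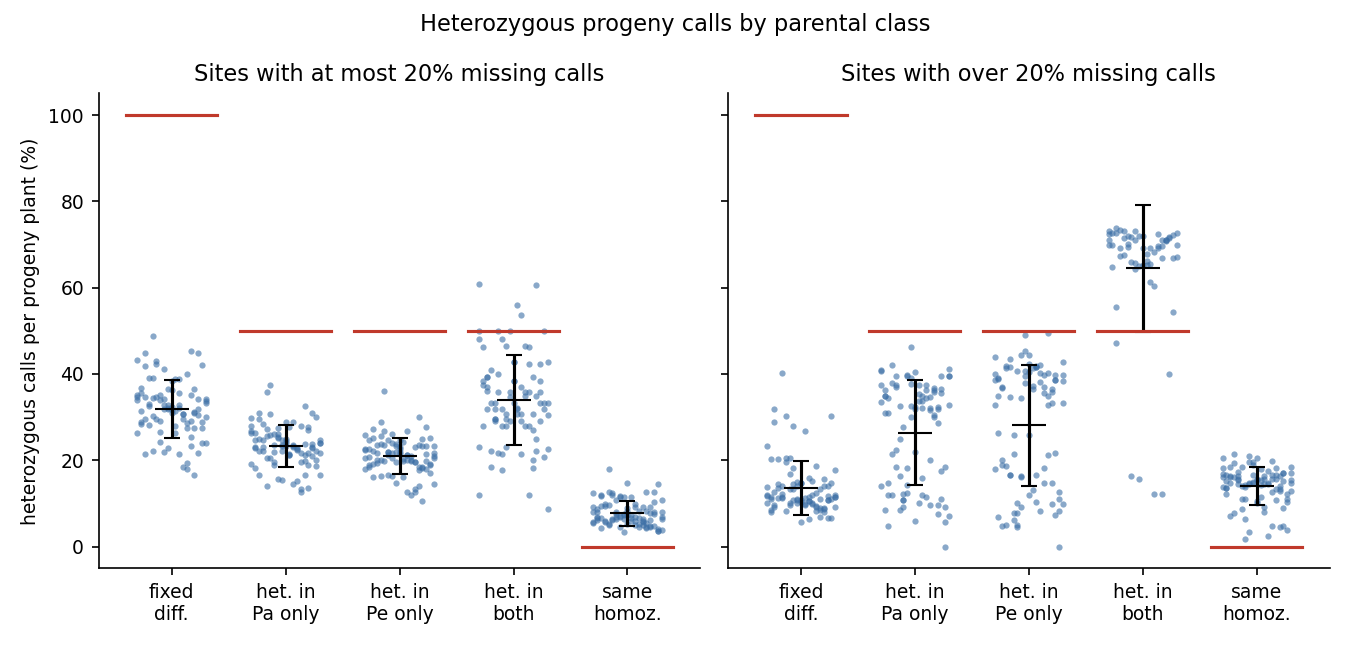
Heterozygous calls per progeny plant (%, y axis, 1 point per plant, black mark and bar for mean and SD) by parental class (x axis), at widely called (left) and sparsely called sites (right); red lines mark the share that the parents' calls predict. At fixed differences the means are 31.9% on the left and 13.6% on the right, where 100% is predicted.

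Single fixed differences ranged widely. Of the 3386, 98 (2.89%) were heterozygous in over 90% of the called progeny, 679 in over 50% to 90%, and 281 (8.30%) in 0 progeny. Sparsely called sites gave 13.6% ± 6.26 heterozygous progeny calls at fixed differences (n = 90) and 14.0% ± 4.40 at sites with the same homozygote. These means hide opposite orders in the plants with more and fewer calls. Fixed differences had the lower share of heterozygotes in 60 of the 60 plants with more calls (10.98% against 15.9%) and the higher share in 29 of the other 30 (18.8% against 10.1%), each with p = 1e-05 in the permutation test. Over all plants the fixed differences were lower in 61 of 90 (permutation p = 0.614). Only 2 of 19462 sparsely called fixed differences with at least 20 called progeny were heterozygous in over 90% of plants. The shared heterozygous sites of this set stood apart. The progeny were heterozygous there at 64.4% ± 14.7 of calls (n = 61 plants with at least 20 calls), and 3733 of the 14125 sites (26.4%) were heterozygous in over 90% of plants. In 4 plants, PaPe52, PaPe63, PaPe76 and PaPe89, the share lay between 12.2% and 16.3%, while the other 57 had a median of 69.8% and reached 73.8%. A limit of 20% was set after these values were seen.

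Heterozygous calls at sites heterozygous in 1 parent were compared between the parents within each plant, since both classes predict the same ratio. The shares are of all calls, so they do not measure transmission alone. At widely called sites, calls not allowed made up 16.9% where Pa alone was heterozygous and 19.7% where Pe alone was. At widely called sites 23.3% of calls were heterozygous where Pa alone was heterozygous, against 21.1% where Pe alone was. The difference was 2.26 percentage points ± 1.95 (SD), with Pa-only sites higher in 79 of 90 plants (sign-flip permutation test over plants, two-sided, 100000 permutations, p = 1e-05, the smallest they can give; adjusted p = 2e-05 over 4 tests). For sparsely called sites the difference was -1.68 ± 5.30, with Pe-only sites higher in 56 plants and Pa-only sites in 33 (permutation p = 0.00331, adjusted p = 0.0044). The plants differ in how much they were called, with 30 of the 90 lacking over 50% of calls. At widely called sites the difference was 2.0 in the 60 plants with more calls and 2.77 in the 30 with fewer, each with p = 1e-05 in the permutation test. Sparsely called sites gave -2.75 (permutation p = 0.00024) in the 60 and 0.458 (permutation p = 0.581) in the 30. There the 30 had a median of 99.5 calls at Pa-only and 114.5 at Pe-only sites, against 8864 and 12850 in the 60. The 2 groups were thus read at unlike sets of sites. Over only those widely called sites heterozygous in 1 parent with at most 5% of progeny calls not allowed by the parents, the difference was 0.0098 (permutation p = 0.985). Missing calls were filled in by the authors from neighboring plants, so plants are not fully independent and these p-values may be too small. All plants were also read at the same sites, so these p-values do not cover the spread between sites.

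Per site, the ratio of the predicted heterozygote and homozygote was tested against 1:1 with exact two-sided binomial tests, adjusted by the Benjamini-Hochberg method over all sites of a set. At widely called sites 2219 of 2930 (75.7%) departed from 1:1 at an adjusted p under 0.05. Where Pa was the heterozygous parent, 843 of 1143 sites (73.8%) departed, and where Pe was, 1376 of 1787 (77%). Nearly all had fewer heterozygotes than predicted, 2191 in all (74.8%), 828 for Pa (72.4%) and 1363 for Pe (76.3%). More heterozygotes than predicted were found at 28 sites (0.956%), 15 for Pa (1.31%) and 13 for Pe (0.727%). The median site had 26.1% heterozygotes among the 2 predicted genotypes for Pa and 23.9% for Pe. Among sparsely called sites 10534 of 21559 (48.9%) departed, 48.4% for Pa and 49.2% for Pe. Fewer heterozygotes were found at 7130 (33.1%), 36.5% for Pa and 30.7% for Pe, and more at 3404 (15.8%). The latter were 1051 of the 8826 sites for Pa (11.9%) and 2353 of the 12733 for Pe (18.5%). Whether these shares differ between the parents was not tested, because linked sites are not independent.

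At a fixed difference each called allele of a progeny plant matches the base of Pa or that of Pe, and an F1 plant is predicted to carry 50% of each. At widely called sites the share of Pa alleles was 51.6% ± 1.09 (n = 90) and above 50% in 85 plants (sign-flip permutation test, p = 1e-05, adjusted p = 2e-05). It ranged from 47.3% in PaPe74 to 54.2% in PaPe1. The mean of 60 plants with more calls was 51.7% and that of the other 30 was 51.6%. All plants were read at the same linked sites. The p-values for the share of Pa alleles thus measure how alike the plants were and not the spread between sites. By chromosome, 11 of the 18 that could be tested departed from 50% at an adjusted p under 0.05 in this permutation test, 7 with more Pa alleles and 4 with fewer. The largest departures were on chromosome 18 (41.4% ± 9.99 over 38 sites, n = 90, permutation adjusted p = 2.25e-05) and chromosome 17 (58.2% ± 11.2 over 40 sites, n = 89, permutation adjusted p = 2.25e-05). On chromosome 8 the share was 57.4% ± 4.59 over 139 sites and above 50% in 86 of 90 plants. The sparsely called sites gave a share of 49.0% ± 4.67 over all plants, below 50% in 53 of 90 (permutation p = 0.0469, adjusted p = 0.0469), and 3 of 19 chromosomes departed, all with fewer Pa alleles. In the 60 plants with more calls it was 48.1% (permutation p = 0.00685) and in the other 30 it was 50.7% (permutation p = 0.203). Leaving out chromosome 2, 3, 4, 6 or 9 ended the call, with a permutation p of up to 0.129. The lowest was chromosome 9 with 41.3% ± 17.7 (n = 61, permutation adjusted p = 0.0082).

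**Figure D5:**
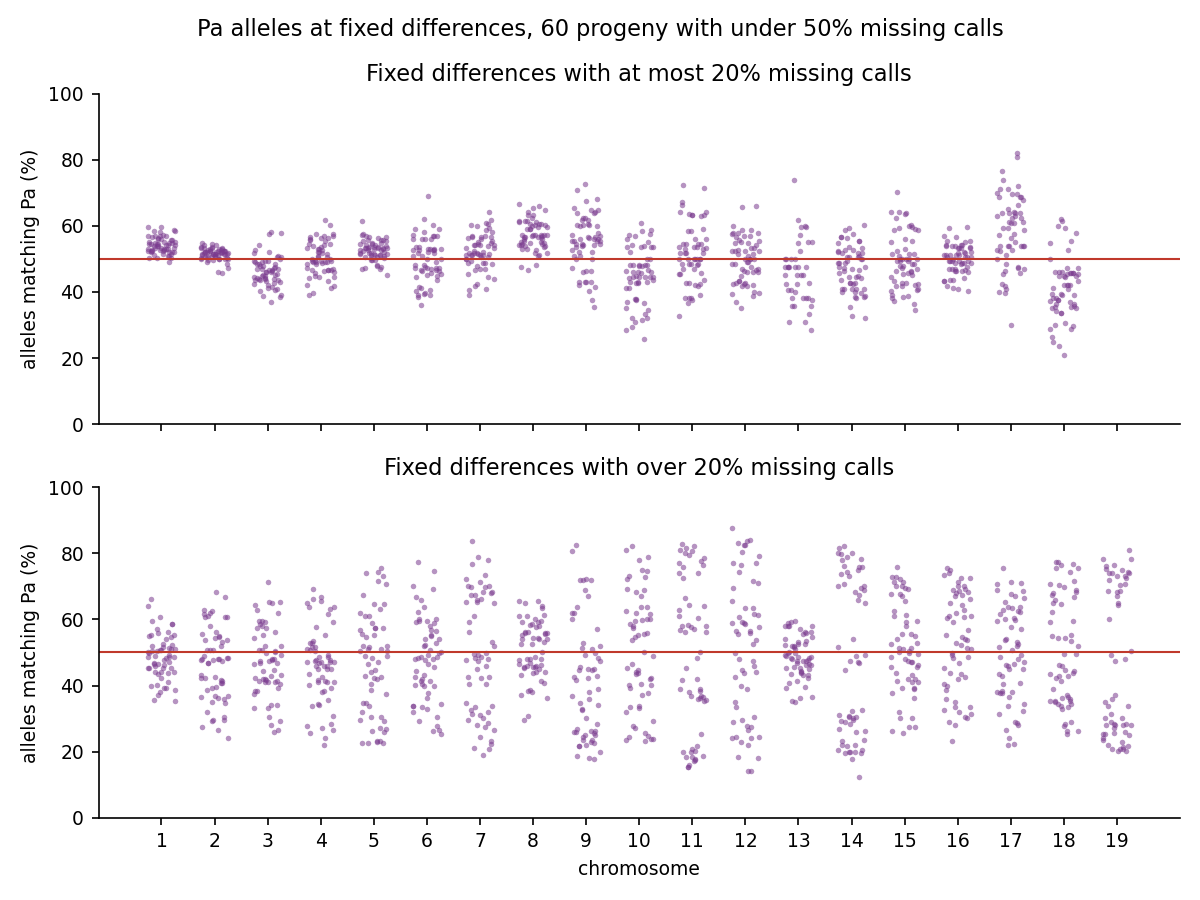
Share of alleles matching Pa (%, y axis) at fixed differences on each chromosome (x axis), with 1 point for each of the 60 progeny with under 50% missing calls, at widely called (top) and sparsely called sites (bottom); the red line marks 50%. In the bottom panel the plants of chromosome 19 fall in 2 clouds, with 32 at or below 40%, 24 at or above 60% and 4 between.

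The sets also differed in how far this share spread between plants. Among the 60 plants with more calls, the SD on a chromosome had a median of 6.75 percentage points at widely called and 14.9 at sparsely called sites. On chromosome 14 the sparsely called fixed differences gave shares of 12.3% to 82.1%, and 28 plants lay at or below 40%, 24 at or above 60% and 8 between. Over all chromosomes and plants, 54.6% of 1140 values lay at or below 40% or at or above 60% at sparsely called sites, against 19.7% of 1063 at widely called ones. Neighboring fixed differences were then compared in plants that were homozygous at both. Within 64 bp both calls had the same parent's base in 96.0% ± 0.707 of cases at widely called and 95.4% ± 0.673 at sparsely called sites (n = 60 plants each). For neighbors over 1 kb to 100 kb apart the values were 49.4% ± 2.90 and 68.4% ± 4.89. From 100 kb to 1 Mb they were 50.8% ± 2.01 and 59.5% ± 2.83. Homozygous calls at fixed differences are not allowed in an F1 plant. They show which parent's base was called, and not descent from that parent alone. At widely called fixed differences the parent matched by a homozygous call was mostly shared within 64 bp, whereas beyond 1 kb it was shared about as often as unshared. At sparsely called ones it was shared more often than not up to 1 Mb, above 50% in 60 of 60 plants to 100 kb and in 58 from there to 1 Mb. Over 1 Mb apart it was shared in 54.9% ± 7.88 of cases, above 50% in 43 of 60 plants, from only 98 pairs of sites. The plants with over 50% missing calls gave 52.0% ± 9.80 from 100 kb to 1 Mb, above 50% in 11 of the 20 with enough calls.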

How the data were processed

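The authors sequenced 4 multiplexed libraries, 2 for each enzyme pair, and called SNPs with the TASSEL-GBS pipeline and Bowtie 2, with default settings per their methods. No source used here names the reference build. Each deposited value is another kind of entry than a measurement, namely 1 letter for a genotype. Per the authors' label, calls were imputed from nearest neighbors and SNPs with a minor allele frequency under 0.05 removed, and the table does not mark which calls were imputed. It gives no depth. It had 0 columns of unknown identity.

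Entries with 2 base alleles on chromosomes 1 to 19 and a call in both parents were used, split at 20% missing calls. Plants with under 20 calls in a class were left out of its means. Windows, stretches and sites were named by rule: the highest shares among windows with enough sites, the longest stretches and the sites with fewest missing calls. Sets, rules and tests were chosen with earlier results of these data known. Alternatives concerned the limit on missing calls, allele frequency, SNP density, label 20, calls not allowed, chromosomes and plants. Steps were tested on a simulated cross. With no missing or wrong calls, 100% of 200 sites distorted toward heterozygotes among 2932 were found by the 1:1 test. A lack of heterozygotes, missing calls and calls not allowed were not simulated for that test. Python 3.11.15, numpy 2.4.6, scipy 1.17.1, pandas 2.3.3 and matplotlib 3.10.9 were used.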

Additional observations from a re-analysis of the deposited data

Results flagged for a closer look

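The progeny with under and over 50% missing calls were compared by permuting these labels, with 6 comparisons and Benjamini-Hochberg adjustment. At sparsely called sites 3 of the 6 differed. The share of heterozygous calls at fixed differences was 11% ± 2.57 in the 60 plants with more calls and 18.8% ± 8.01 in the 30 with fewer, a difference of -7.86 percentage points (permutation p = 1e-05, adjusted p = 6e-05). The share of Pa alleles there was 48.1% against 50.7%, a difference of -2.60 (permutation p = 0.0119, adjusted p = 0.0238). The difference in heterozygous calls between Pa-only and Pe-only sites was -2.75 against 0.458, a gap of -3.21 (permutation p = 0.00588, adjusted p = 0.0176). The plants with fewer calls had a median of 616 calls at sparsely called fixed differences, against 19104 in the others. At Pa-only and Pe-only sites of this set their medians were 99.5 and 114.5, against 8864 and 12850. At widely called sites the lowest adjusted permutation p of the same 3 comparisons was 0.12.

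Outside the 19 chromosomes, the table has sites under a label 20, which were left out of the comparison of the parents. There, 36.3% of 518 widely called sites were fixed differences (interval 32.3 to 40.5) and 55.8% of 242 sparsely called ones (interval 49.5 to 61.9). Pa was heterozygous at 18.9% and 7.44% of these sites and Pe at 26.4% and 9.92%. Among the 242, 0 were heterozygous in both parents, which allows a share of up to 1.24% when 3 counts are taken as the limit, and 1.56% by the upper end of the Wilson interval.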

How the results depend on the processing

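Depth is unknown, which calls were imputed is not marked, and each parent has 1 column, so sequencing error and the spread within a species were not measured. No paired analysis was possible because the replicate numbers of the labels belong to library plates, which the table merges, and each plant has 1 column. The tests within each plant pair classes of sites, not samples. The causes of the changes below were not tested. Counts of departures from 1:1 below come without the number of sites tested. That number changes with the sites and plants used, since a site needed at least 20 predicted calls. A lower count thus does not show a lower share of departures.

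At widely called sites, a missing limit of 10% left 4195 sites, with 26.8% heterozygous in Pe, 44.4% fixed differences, 12.7% with the same homozygote and 1126 departures from 1:1. A limit of 30% gave 14.6% heterozygous in Pa, 21.2% in Pe, 48.2% fixed differences and 16.5% with the same homozygote. A minor allele frequency of at least 0.1 gave 46.9% fixed differences and 12% with the same homozygote. With 1 site per 1 kb, 3197 sites were left, with 14.9% heterozygous in Pa, 43.2% fixed differences, 16.8% with the same homozygote and 1005 departures from 1:1. At most 5% of calls not allowed left 691 sites, a limit that itself selects among the classes: 43.4% were heterozygous in Pa, 55.7% in Pe and 4.05% in both, 4.92% were fixed differences and 0 had the same homozygote. Since each homozygote counts as not allowed at a fixed difference, this limit itself sets the heterozygous share there (96.9%) and holds the share of Pa alleles near 50% (49.8%), so neither value bears on the results without it. The difference between Pa-only and Pe-only sites was 0.0098 and 227 sites departed from 1:1. The 30 progeny with fewer calls alone gave 483 departures, with at most 30 calls per site.

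At sparsely called sites, a split at 10% gave 20.4% fixed differences, 13.7% heterozygous in both and 43.3% with the same homozygote. A split at 30% gave 23.5% heterozygous in Pa, 27.7% in Pe and 14.5% in both, 18.7% fixed differences, 44.6% with the same homozygote and a share of Pa alleles of 50.2% (permutation p = 0.78). A minor allele frequency of at least 0.1 gave 23.8%, 28.1% and 14.7% heterozygous in Pa, Pe and both, 20.1% fixed differences, 42.7% with the same homozygote and a Pa share of 49.1% (permutation p = 0.0663). With 1 site per 1 kb, 29750 sites were left, with 21.8% heterozygous in Pa, 25.3% in Pe, 22.1% fixed differences, 44.7% with the same homozygote, 60.2% transitions, a Pa share of 49.2% (permutation p = 0.0976) and 2847 departures from 1:1. With label 20 included, the Pa share was 49.05% (permutation p = 0.054). At most 5% of calls not allowed left 21526 sites, 81.4% heterozygous in Pa, 84.2% in Pe and 65.6% in both, 0 fixed differences, 0 with the same homozygote, 59.8% transitions and 2301 departures, and with 0 fixed differences the progeny measures at such sites have no value. The 30 progeny with fewer calls gave a difference between Pa-only and Pe-only sites of 0.458, a Pa share of 50.7% and 8 departures. These plants had a median of only 99.5 calls at Pa-only sites and 114.5 at Pe-only sites.

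Leaving out each chromosome in turn, fixed differences at widely called sites ranged from 44.4% to 46.5%, departures from 1:1 from 1163 to 2218 and sites from 3919 to 7399, the lowest counts without chromosome 2. At sparsely called sites the ranges were 22.7% to 23.3% heterozygous in Pa, 26.9% to 27.4% in Pe and 13.5% to 14.4% in both, 18.9% to 20.9% fixed differences, 42.9% to 44.7% with the same homozygote and 48.9% to 49.2% for the Pa share. The order of Pa and Pe in heterozygosity held in each of these settings. Of the alternatives on base composition, chosen after seeing the data, those with 1 site per 1 kb moved the shares of A or T at sparsely called sites to 56.3% for Pa and 54.0% for Pe.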
